A study of Mesocricetus auratus with 6 samples.

Results

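The genes described are 69 genes of the centrosome and the cilium in BHK21 cells, a fibroblast-like line from baby hamster kidney. They were chosen by name: genes with a golden hamster symbol made of Cep, Ift or Bbs and a number, which gave 38 Cep, 14 Ift and 8 Bbs genes, and 9 of 10 further genes named one by one (Tubgcp2, Tubgcp3, Tubgcp4, Pcnt, Cdk5rap2, Pcm1, Sass6, Plk4 and Ofd1). Tubg1 was not analysed here, because no ID matched that symbol. The 69 genes are part of 16078 IDs listed in each library, and 67 of them were tested. The other two, Ift43 and Cep295nl, had a mean under 1 FPKM, the minimum used for testing. FPKM is the number of sequenced fragments of a gene scaled to the length of its transcript and to the size of the library, so levels of different genes can be set side by side.

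The study compared 3 libraries from BHK21 cells transfected with STYK1/NOK (STYK1 1 to 3) with 3 libraries from cells transfected with the plasmid pCMV-Myc, the empty vector (vector 1 to 3). STYK1/NOK is a membrane protein with a kinase-like domain that the series calls an oncogene. All cells belonged to one line, which the labels assign to kidney tissue at an age of one day, and all were harvested 48 after transfection, with no unit of time given. The species of the transfected sequence and the share of cells that took up plasmid are not given, and the labels do not say whether the cultures were separate. The p-values therefore reflect the spread among these 6 libraries, which may be technical.

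The centrosome is the main microtubule-organizing centre of animal cells. It holds a pair of centrioles in a matrix called pericentriolar material, from which the gamma-tubulin ring complex nucleates microtubules. Centrioles are duplicated once per cell cycle under the kinase PLK4, and in cells that leave the cycle the older centriole becomes the base of a primary cilium, a sensory antenna used among others by Hedgehog signalling. Cilia are built by intraflagellar transport (IFT) trains, made of an IFT-B complex for outward and an IFT-A complex for return movement, and the BBSome, named after Bardet-Biedl syndrome, carries membrane proteins along them. No sequence of these genes is shown, since the sources used here held none.

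Before the genes themselves, the libraries are described. Between 14119 and 14339 IDs were above 0 in the STYK1 libraries and between 14119 and 14296 in the vector libraries. The total number of reads is not given, so depth is unknown. FPKM of all IDs summed to 528160, 530277 and 542638 in STYK1 1, 2 and 3, against 619840, 554681 and 557946 in vector 1, 2 and 3. Values were tested without further scaling unless a scaling is named. Vector 1 stood apart: its correlation with the other libraries on log2(FPKM + 1) was 0.962 to 0.976, against 0.988 to 0.993 among the rest, and results are therefore also given without it. The hamster gene Styk1 measured 2.04, 2.46 and 2.41 FPKM in STYK1 1, 2 and 3, against 1.5, 1.8 and 1.89 FPKM in vector 1, 2 and 3, and did not pass the test (limma-trend, adjusted p = 0.469). Of 9 fibroblast markers with an ID, 5 were tested (Vim, Sparc, Fn1, Pdgfra and Pdgfrb). Of these, 0 were higher or lower at an unadjusted p under 0.05, against 9.92% of all tested genes. Vim measured 3650 to 3950 FPKM in STYK1 and 3915 to 4141 FPKM in vector libraries, and Pdgfra 276 to 330 FPKM in STYK1 and 184 to 303 FPKM in vector libraries. The other fibroblast markers were low: Col1a1 was at or below 0.79 FPKM in STYK1 and 1.02 FPKM in vector libraries, and Col1a2, Col3a1 and Thy1 were at or below 0.73 FPKM in STYK1 and 0.84 FPKM in vector libraries. Of 7 kidney epithelial markers with an ID, Epcam, Cdh1, Cdh16, Krt8 and Krt18 lay between 0 and 0.11 FPKM in STYK1 libraries and between 0 and 0.23 FPKM in vector libraries. The other two were higher: Aqp1 measured 1.63 to 3.49 FPKM in STYK1 and 2.27 to 2.57 FPKM in vector libraries, and Pax8 measured 0.62 to 1.12 FPKM in STYK1 and 0.45 to 0.66 FPKM in vector libraries. Of 6 leukocyte markers with an ID, Ptprc, Itgam and Cd3e were at or below 0.15 FPKM in STYK1 and 0.16 FPKM in vector libraries. Cd68 measured 279 to 295 FPKM in STYK1 and 288 to 351 FPKM in vector libraries. For Cd14 it was 170 to 217 FPKM in STYK1 and 180 to 234 FPKM in vector libraries. Csf1r measured 2.91 to 3.56 FPKM in STYK1 and 3.03 to 3.7 FPKM in vector libraries. Of 3 endothelial markers with an ID, Cdh5 measured 6.13 to 9.11 FPKM in STYK1 and 4.45 to 8.23 FPKM in vector libraries. The other endothelial markers, Pecam1 and Tek, were at or below 0.5 FPKM in STYK1 and 0.54 FPKM in vector libraries.

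Transcripts of the centrosome and of the ciliary transport machinery were detected at moderate levels in both groups. The median of the mean levels of the 69 genes was 9.41 FPKM, against 7.88 FPKM over all listed IDs, and among tested genes it was 9.59 FPKM for the 67 members against 16.1 FPKM for all 11342. In the order of mean levels over the 6 libraries, the IFT-B genes Ift57 (82.9 FPKM), Ift20 (66.6 FPKM) and Ift46 (57.2 FPKM) came first. They were followed by Cep57 (35.6 FPKM), Bbs7 (34.8 FPKM), Tubgcp2 (32.5 FPKM) and Pcm1 (30.6 FPKM). At the lower end stood Cep85l (1.88 FPKM) and Cep97 (2.12 FPKM), then Cep128 (2.98 FPKM) and Bbs10 (3.31 FPKM). Products of one complex are not listed at one level: the 11 IFT-B genes ran over a 24.7-fold range of mean FPKM down to Ift88 (3.35 FPKM), and the 6 BBSome genes over a 6.81-fold range down to Bbs9 (5.10 FPKM). Neighbours in this order, such as Ift22 (9.21 FPKM) and Ift172 (8.98 FPKM) or Bbs1 (9.38 FPKM) and Bbs5 (8.53 FPKM), overlapped between libraries. The untested IFT-A gene Ift43 was listed at 0.56, 0.44 and 0.38 FPKM in STYK1 1, 2 and 3, against 0.52, 0.69 and 0.40 FPKM in vector 1, 2 and 3. Cep295nl was listed at 0.27, 0.23 and 0.15 FPKM in the STYK1 libraries, against 0.56, 0.15 and 0.27 FPKM in the vector libraries. Both low genes overlapped between the groups.

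**Figure D1:**
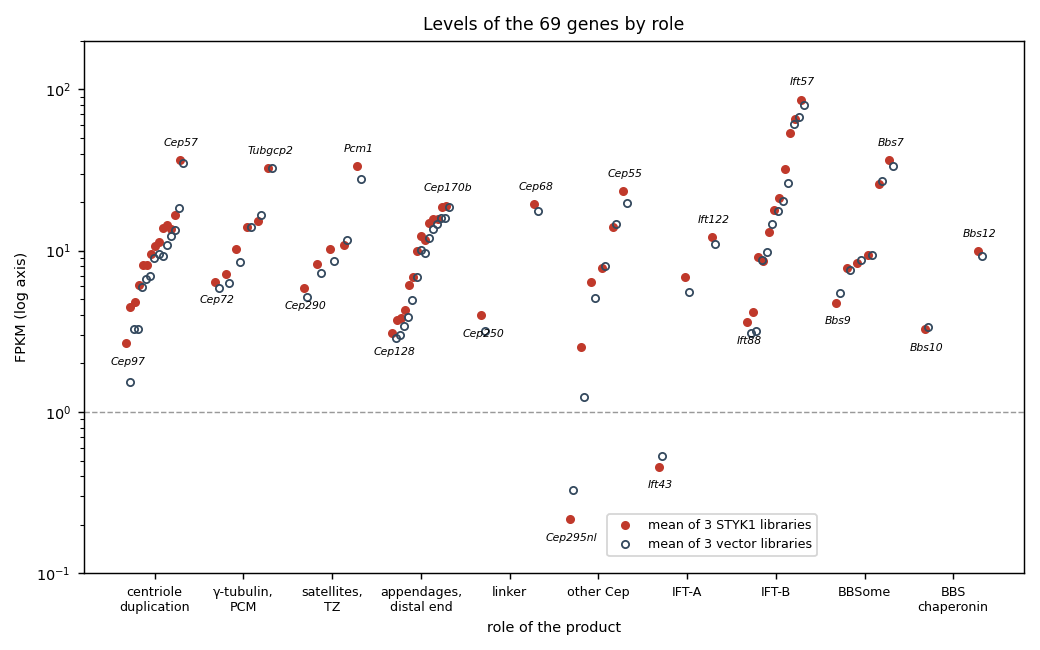
Mean FPKM (log axis) of each of the 69 genes in the STYK1 libraries (filled points) and in the vector libraries (open points), arranged by the role of the product, with the lowest and highest gene of each role named. IFT-B genes reach the highest levels, up to Ift57, and Ift43 and Cep295nl lie below the dashed line at 1 FPKM.

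The comparison of the series asks whether transcript levels differ between STYK1-transfected and vector-transfected cells. No centrosomal or ciliary gene passed the test (limma-trend on log2(FPKM + 1), 0 of 67 members, adjusted p between 0.468 and 0.998), and over all genes it was also 0 of 11342, a background of 0% called. The values that follow are therefore given as measurements with no direction called. At an unadjusted p under 0.05, 6 members had higher and 0 had lower values in STYK1 libraries: Cep85l, Cep97, Cep135, Pcm1, Cep170 and Ift74. That is 8.96% of the 67 members, set beside a background of 9.92% of all tested genes in either direction, 4.99% for the higher and 4.93% for the lower. The count depended on single libraries and on scaling. Without STYK1 1 it was 1 (Cep85l) and without STYK1 2 it was 2 (Cep85l and Sass6), with 1.38% and 1.77% of all genes higher. Without vector 1 it was 6 higher and 1 lower (Ift22), with all genes at 9.45% in either direction, 4.9% higher and 4.55% lower. With libraries scaled to equal FPKM sums it was 14 higher and 0 lower (all genes 11% and 1.86%), and after median centring 5 higher and 1 lower, Ift46 (all genes 3.13% and 7.27%). With libraries weighted by quality, which gave vector 1 a weight of 0.127, it was 15 higher and 1 lower, Ift22 (all genes 10.6% and 10.1%).

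Across the 67 genes the values leaned to the STYK1 side. The log2 fold change is STYK1 minus vector on the log2(FPKM + 1) scale, which understates the change of genes with low FPKM. It was above 0 for 48 members (71.6%), against 52.7% of all tested genes. Its median was 0.11 for the members and 0.01 for all tested genes. Without vector 1 it was above 0 for 54 members (80.6%), against 55.7% of all genes, with medians of 0.07 and 0.02. Scaling to equal FPKM sums moved the median of all genes to 0.12 and that of the members to 0.21. The gap between members and all genes was 0.10 without scaling. Median centring shifts all genes of a library alike and cannot change the gap. Equal sums come close to such a shift and gave 0.10 as well. The gap was 0.07 after quantile normalization, 0.06 with quality weights and 0.05 without vector 1. The single values ran from -0.19 (Ift46) to 0.65 (Cep85l). For 43 of the 67 members the 95% interval of the log2 fold change lay within -0.5 and 0.5. The 3 STYK1 libraries all lay above the 3 vector libraries for 15 members (22.4%) and all lay below for 1 (1.49%), Ift46. Over all tested genes 13.6% lay all above and 9.46% all below. Without vector 1 it was 17 members (25.4%) all above and 3 (4.48%) all below (Cep128, Ift22 and Ift46), with all genes at 17.9% and 11.8%. In RNA from whole cultures, a change in the share of cells that express a gene and a change in the level per cell cannot be told apart.

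**Figure D2:**
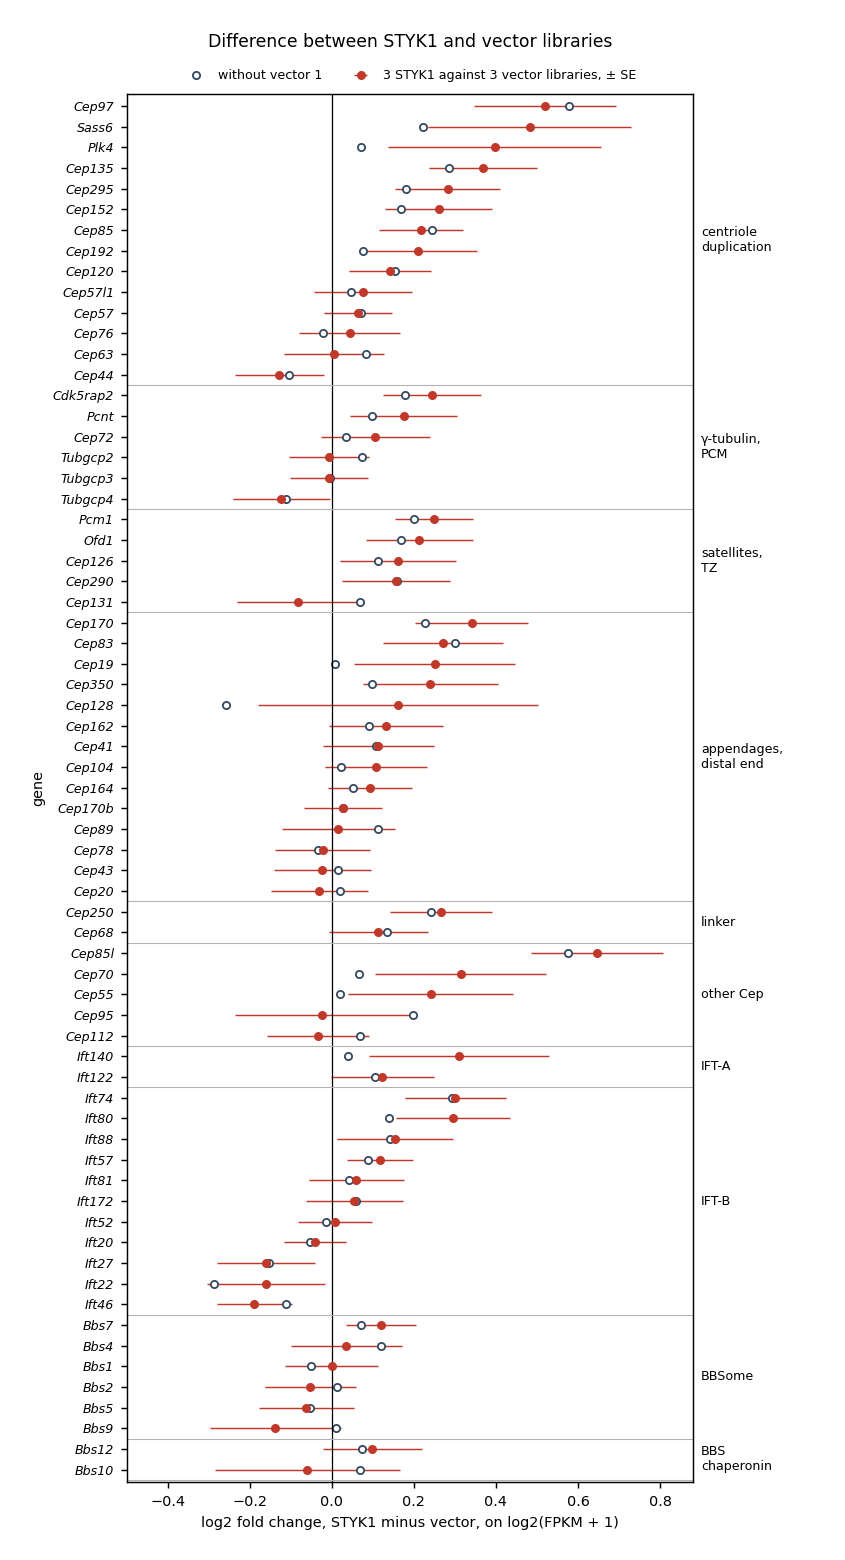
Log2 fold change (STYK1 minus vector, on log2(FPKM + 1)) of the 67 tested genes by role, with filled points and bars for the mean ± SE of 3 against 3 libraries and open points for the value without vector 1. Cep85l and Cep97 lie farthest right in both, whereas Plk4, Cep19, Cep55 and Ift140 lie near 0 without vector 1.

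Most genes of centriole duplication had higher means in STYK1 libraries. Of 14 tested, 13 had a log2 fold change above 0, against 52.7% of all tested genes. All STYK1 libraries lay above all vector libraries for 6 of the 14, against 13.6% of all tested genes. The unadjusted p was below 0.05 for 2 of the 14 (limma-trend), each with the higher mean in STYK1 libraries. The share of all tested genes was 9.92% in either direction and 4.99% for the higher. After adjustment 0 of the 14 passed. The median of this role was 0.21, and 0.12 without vector 1. Cep97 (Gene ID 101827333), which with CP110 caps the end of centrioles, measured 3.22, 2.85 and 1.98 FPKM in STYK1 1, 2 and 3, against 1.75, 1.33 and 1.56 FPKM in vector 1, 2 and 3. All STYK1 values lay above all vector values, with STYK1 3 close to vector 1. The means differed by 1.73-fold, and the log2 difference was 0.52 ± 0.17 (SE, unadjusted p = 0.0161, limma-trend). Cep135 (Gene ID 101842184), a protein of the centriolar cartwheel, measured 4.53, 4.58 and 4.42 FPKM in the STYK1 libraries, against 2.80, 3.44 and 3.60 FPKM in the vector libraries, a 1.38-fold difference of means and 0.37 ± 0.13 (SE) in log2. Its STYK1 values lay within 0.16 FPKM of each other and above all vector values. Cep295 (Gene ID 101829922), which is needed to turn new centrioles into centrosomes, measured 11.2, 11.9 and 10.9 FPKM in the STYK1 libraries, against 7.82, 10.6 and 9.19 FPKM in the vector libraries, a log2 difference of 0.28 ± 0.13 (SE), or 0.18 without vector 1. The groups did not overlap, but STYK1 3 and vector 2 were close.

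The trigger of duplication and its scaffold did not separate in this way. Plk4 (Gene ID 101832013), the kinase that starts the new centriole, measured 14.9, 12.01 and 14.8 FPKM in STYK1 1, 2 and 3, against 6.16, 11.8 and 14.6 FPKM in vector 1, 2 and 3. Only vector 1 was far below the STYK1 libraries, and vector 3 was at their level. The log2 difference was 0.40 ± 0.26 (SE, 95% interval -0.20 to 0.99, limma-trend), and 0.07 without vector 1. Sass6 (Gene ID 101833687), which builds the cartwheel that gives the centriole its symmetry, measured 5.43, 3.54 and 5.55 FPKM in the STYK1 libraries, against 1.87, 4.08 and 3.81 FPKM in the vector libraries. STYK1 2 lay below vector 2 and vector 3, so the groups overlapped. In log2 the difference was 0.48 ± 0.25 (SE), and 0.22 without vector 1. Cep152 and Cep192, the docking proteins that bring PLK4 to the centriole, had means of 8.17 ± 0.680 against 6.67 ± 0.832 FPKM and 8.10 ± 0.370 against 6.93 ± 1.25 FPKM, STYK1 against vector (SD, n = 3 each). Their log2 differences were 0.26 ± 0.13 and 0.21 ± 0.14 (SE), and 0.17 and 0.08 without vector 1. Cep63, a partner of Cep152, showed no difference of means beyond its spread, at 13.5 ± 1.47 FPKM in STYK1 and 13.5 ± 1.41 FPKM in vector libraries. Cep44 was the 1 gene of this role with a value below 0, at 16.7 ± 1.87 FPKM in STYK1 and 18.3 ± 0.574 FPKM in vector libraries. The other members (Cep57, Cep57l1, Cep76, Cep85 and Cep120) had log2 differences between 0.04 and 0.22, and between -0.02 (Cep76) and 0.24 without vector 1.

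**Figure D3:**
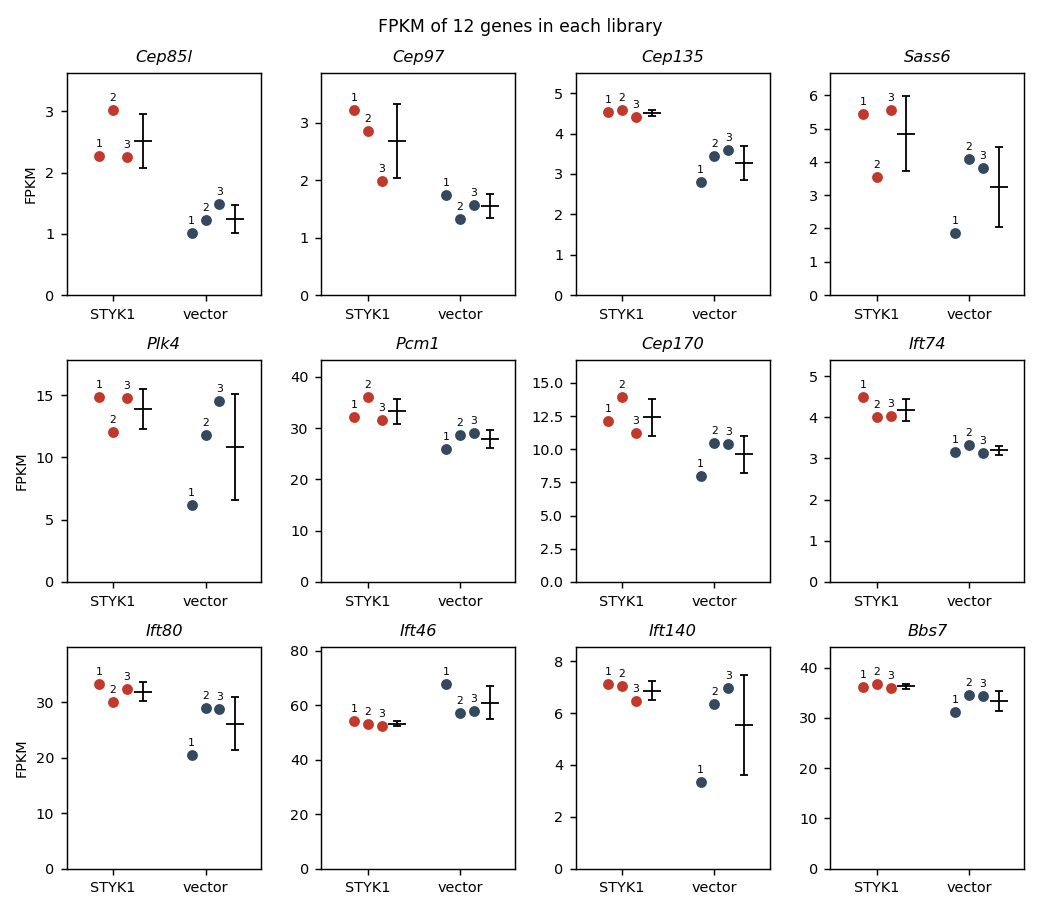
FPKM of 12 genes in each library (points, numbered by replicate), with the STYK1 group on the left of each panel, the vector group on the right, and a bar at the mean with its SD (n = 3 each). Cep85l, Cep97, Cep135, Pcm1, Cep170 and Ift74 have no overlap between the groups, and in Plk4, Sass6 and Ift140 vector 1 is the low point.

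Vector 1 was the lowest of the 6 libraries for 30 of the 67 members (44.8%), against 36.3% of all tested genes, and the highest for 11 members (16.4%), against 37.2% of all genes. Without it, 12 members had a log2 fold change of the other sign, 20 had one smaller by over 1.5 times, 5 had one larger by over 1.5 times and 30 stayed within 1.5 times. Genes of mitosis and G2/M, a list of 25 tested genes, were also low in that library. Their mean level relative to the vector mean was 0.44, 0.03 and 0.43 in STYK1 1, 2 and 3, against -0.50, 0.18 and 0.33 in vector 1, 2 and 3, on the log2 scale. Their median log2 fold change was 0.32, and 0.03 without vector 1. The 14 centriole duplication genes stood at 0.27, 0.20 and 0.16 in the STYK1 libraries, against -0.13, 0.04 and 0.09 in the vector libraries, and at a median of 0.12 without vector 1. Cytosolic ribosomal protein genes lay on the other side, at -0.33, -0.27 and -0.29 in the STYK1 libraries, against 0.28, -0.14 and -0.14 in the vector libraries. The median of these 25 tested genes was -0.32, and -0.16 without vector 1. All STYK1 libraries lay below all vector libraries for 23 of them, against 9.46% of all tested genes. Without vector 1, 0 were higher and 16 lower at an unadjusted p under 0.05 (limma-trend), against 4.9% and 4.55% of all tested genes. What part the state of the cell cycle or the ribosomal share of the RNA had in the centrosomal values was not tested.

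**Figure D4:**
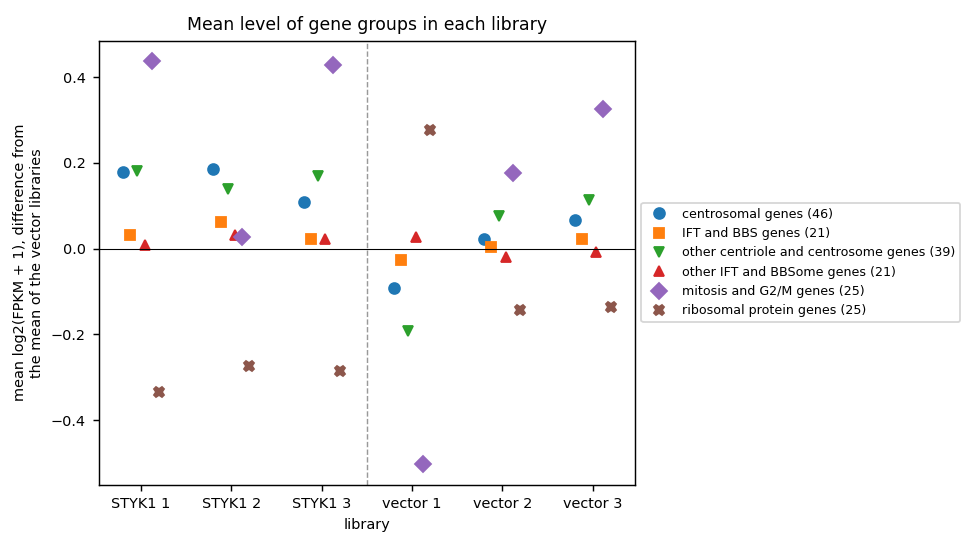
Mean log2(FPKM + 1) of 6 groups of genes in each library, as the difference from the mean of the vector libraries, with STYK1 libraries on the left of the dashed line and the number of tested genes in brackets. Centrosomal genes lie between 0.11 and 0.19 in STYK1 libraries and between -0.09 and 0.07 in vector libraries, whereas mitosis genes spread far more, from 0.44 in STYK1 1 to -0.50 in vector 1.

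Genes of the gamma-tubulin ring and pericentriolar material had a median log2 fold change near 0, with single values from -0.12 (Tubgcp4) to 0.24 (Cdk5rap2). Of 6 tested, 3 had a log2 fold change above 0 and 0 had an unadjusted p under 0.05, against 52.7% and 9.92% of all tested genes. The median of this role was 0.05 (also 0.05 without vector 1). Cdk5rap2 (Gene ID 101837438), which tethers and activates gamma-tubulin rings, measured 10.4, 10.9 and 9.51 FPKM in the STYK1 libraries, against 7.64, 8.43 and 9.48 FPKM in the vector libraries. The groups did not overlap, by 0.03 FPKM between STYK1 3 and vector 3. On the log2 scale the difference was 0.24 ± 0.12 (SE), and 0.18 without vector 1. Pcnt (Gene ID 101833326), which encodes pericentrin, the large scaffold of the material, measured 7.46, 6.93 and 7.12 FPKM in the STYK1 libraries, against 5.51, 7.31 and 6.0 FPKM in the vector libraries, with vector 2 inside the STYK1 range. The log2 difference was 0.17 ± 0.13 (SE), and 0.10 without vector 1. The ring subunits Tubgcp2 and Tubgcp3 had close to equal means in the groups. Tubgcp2 averaged 32.4 ± 0.685 FPKM in STYK1 and 32.7 ± 3.35 FPKM in vector libraries, and Tubgcp3 averaged 13.9 ± 0.713 FPKM in STYK1 and 14.01 ± 0.295 FPKM in vector libraries (SD, n = 3 each). Their log2 differences had 95% intervals of -0.23 to 0.22 and -0.22 to 0.21 (limma-trend). Tubgcp4 (Gene ID 101838126) measured 13.8, 17.0 and 14.9 FPKM in the STYK1 libraries, against 16.9, 14.9 and 18.1 FPKM in the vector libraries, with the groups interleaved and a log2 difference of -0.12 ± 0.12 (SE). Cep72, which takes part in recruiting this material, had a log2 difference of 0.11 ± 0.13 (SE), or 0.03 without vector 1.

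Centriolar satellites are granules around the centrosome, and the transition zone is the gate at the base of the cilium. Of 5 genes of these structures, 4 had a log2 fold change above 0, against 52.7% of all tested genes. The median of this role was 0.16 with and without vector 1. Pcm1 (Gene ID 101840612), the scaffold of the satellites, measured 32.2, 36.1 and 31.6 FPKM in the STYK1 libraries, against 25.9, 28.6 and 29.0 FPKM in the vector libraries. Every STYK1 library lay above every vector library. The means differed by 1.2-fold, and the log2 difference was 0.25 ± 0.09 (SE, unadjusted p = 0.0296), or 0.20 without vector 1 (unadjusted p = 0.0323, limma-trend). Ofd1 (Gene ID 101841353), a protein of satellites and of the distal centriole, measured 10.1, 8.93 and 11.5 FPKM in the STYK1 libraries, against 8.05, 9.70 and 8.16 FPKM in the vector libraries, with vector 2 above STYK1 2, and its log2 difference was 0.21 ± 0.13 (SE). Cep290 (Gene ID 101838462), a large protein of the transition zone, measured 6.62, 6.06 and 5.01 FPKM in the STYK1 libraries, against 5.17, 5.26 and 5.04 FPKM in the vector libraries. STYK1 3 was the lowest of all 6 libraries, and the log2 difference was 0.16 ± 0.13 (SE). Cep126 had a log2 difference of 0.16 ± 0.14 (SE). Cep131, the value below 0, stood at -0.08 ± 0.15 (SE) and at 0.07 without vector 1, its highest library.

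**Figure D5:**
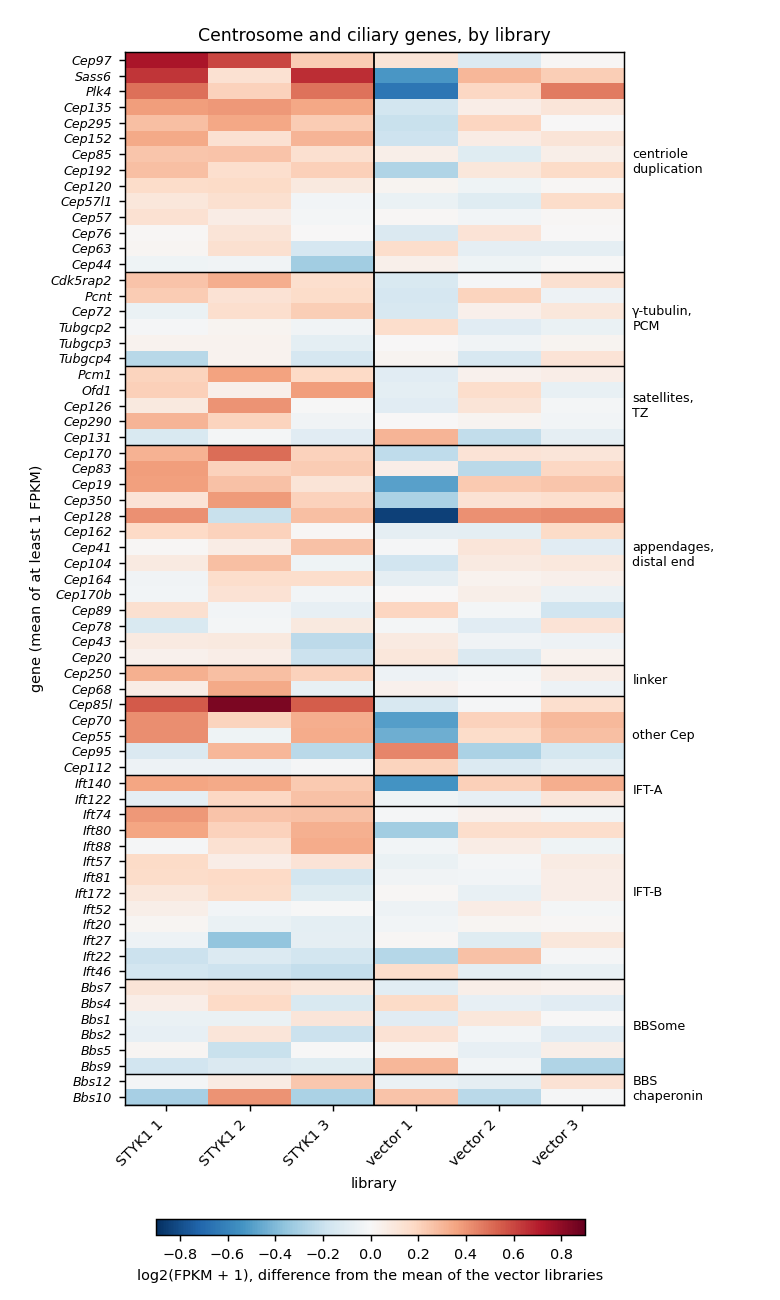
Colour map of log2(FPKM + 1) of the 67 tested genes in the 6 libraries, as the difference from the mean of the vector libraries, with STYK1 libraries to the left of the vertical line and genes ordered by role and fold change. Vector 1 holds the deepest blue cells (among them Cep128, Plk4, Sass6, Cep19, Ift140), and the IFT-B and BBSome rows are paler than those of centriole duplication.

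Appendages anchor the mother centriole to the membrane and to microtubules. Of 14 tested genes of the appendages and the distal end, 11 had a log2 fold change above 0, against 52.7% of all tested genes. All STYK1 libraries lay above all vector libraries for 2 of them, against 13.6% of all tested genes. At an unadjusted p under 0.05, 1 was higher and 0 lower (4.99% and 4.93% of all tested genes). The median of this role was 0.11, and 0.04 without vector 1. Cep170 (Gene ID 101840743), of the subdistal appendages, measured 12.1, 13.9 and 11.2 FPKM in the STYK1 libraries, against 8.0, 10.5 and 10.4 FPKM in the vector libraries. No values crossed between the groups. The log2 difference was 0.34 ± 0.14 (SE, unadjusted p = 0.0370), and without vector 1 it was 0.23 (unadjusted p = 0.0665, limma-trend). Its paralog Cep170b averaged 19.0 ± 1.30 FPKM in STYK1 and 18.6 ± 0.755 FPKM in vector libraries (SD, n = 3 each). Cep83 (Gene ID 101833992), of the distal appendages that dock the centriole, measured 6.64, 5.80 and 5.88 FPKM in the STYK1 libraries, against 5.13, 3.97 and 5.68 FPKM in the vector libraries, a log2 difference of 0.27 ± 0.15 (SE). The groups were separate by a small margin at vector 3. Cep350 (Gene ID 101827921) measured 3.32, 4.18 and 3.59 FPKM in the STYK1 libraries, against 2.26, 3.35 and 3.40 FPKM in the vector libraries, with STYK1 1 below vector 2 and vector 3 and a log2 difference of 0.24 ± 0.16 (SE), or 0.10 without vector 1. Cep128, a subdistal appendage gene, had the widest vector spread of this role on the log2 scale, with 3.78, 2.13 and 3.34 FPKM in the STYK1 libraries, against 1.01, 3.79 and 3.82 FPKM in the vector libraries, and its log2 difference was 0.16 ± 0.34 (SE), and -0.26 without vector 1. Cep164 and Cep89, also of the distal appendages, stood at 0.09 ± 0.10 and 0.02 ± 0.14 (SE), and at 0.05 and 0.11 without vector 1.

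The linker genes and the Cep genes placed in no other role include the member with the smallest p. Cep85l (Gene ID 101844917), a paralog of the duplication gene Cep85, measured 2.27, 3.02 and 2.25 FPKM in STYK1 1, 2 and 3, against 1.02, 1.22 and 1.48 FPKM in vector 1, 2 and 3. All STYK1 libraries lay above all vector libraries, and the level is low in both groups. The means differed by 2.03-fold (1.86-fold without vector 1). The log2 difference was 0.65 ± 0.16 (SE, 95% interval 0.28 to 1.02, unadjusted p = 0.00350, limma-trend), which ranked 32 of 11342 tested genes by p, and it lay between 0.55 and 0.72 when any 1 library was left out. Cep85 itself measured 14.9, 14.9 and 13.8 FPKM in the STYK1 libraries, against 12.8, 11.4 and 12.9 FPKM in the vector libraries, a log2 difference of 0.22 ± 0.10 (SE). Whether the paralogs differed from each other was not tested, and the treatment of reads shared by paralogs is not stated in those sources that were used. Cep250 (Gene ID 101841759), which links the centrioles of a pair, measured 4.18, 4.02 and 3.80 FPKM in the STYK1 libraries, against 3.02, 3.10 and 3.36 FPKM in the vector libraries. These groups were separate, with a log2 difference of 0.27 ± 0.12 (SE), or 0.24 without vector 1. Cep68 (Gene ID 101835843), also of the linker, measured 18.6, 22.7 and 16.8 FPKM in the STYK1 libraries, against 18.2, 17.7 and 17.1 FPKM in the vector libraries, with STYK1 2 alone above the vector range by more than 1 FPKM and a log2 difference of 0.11 ± 0.12 (SE).

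Cep70 and Cep55 show how far single genes rest on vector 1. Cep70 (Gene ID 101823990) measured 6.92, 5.82 and 6.43 FPKM in the STYK1 libraries, against 3.21, 5.84 and 6.26 FPKM in the vector libraries. Its log2 difference was 0.31 ± 0.21 (SE), and 0.07 without vector 1. Cep55 (Gene ID 101835108), which acts at the midbody in the last step of cell division, measured 26.3, 18.9 and 24.8 FPKM in the STYK1 libraries, against 14.04, 21.9 and 23.7 FPKM in the vector libraries. Vector 1 was the lowest library for both genes, and STYK1 2 was the lowest of its group. For Cep55 the log2 difference was 0.24 ± 0.20 (SE), and 0.02 without vector 1. Cep95 had its highest value in vector 1 instead, with a log2 difference of -0.02 ± 0.21 (SE), and 0.20 without vector 1.

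Genes of the cilium itself had differences closer to 0 in their median, a contrast that was not tested. Of 21 tested Ift and Bbs genes, 12 had a log2 fold change above 0, with a median of 0.04 (also 0.04 without vector 1). The 46 tested centrosomal members had a median of 0.15 (0.09 without vector 1), with 36 of them above 0. Over all tested genes 52.7% were above 0. In the IFT-B complex, 7 of 11 were above 0. Ift74 (Gene ID 101840105), which with IFT81 binds tubulin cargo, measured 4.49, 4.01 and 4.03 FPKM in STYK1 1, 2 and 3, against 3.16, 3.32 and 3.12 FPKM in vector 1, 2 and 3. The groups were separate with tight vector values. The means differed by 1.31-fold, and the log2 difference was 0.30 ± 0.12 (SE, unadjusted p = 0.0394), or 0.29 without vector 1 (unadjusted p = 0.0448, limma-trend). Its partner Ift81 averaged 21.2 ± 2.88 FPKM in STYK1 and 20.2 ± 0.798 FPKM in vector libraries (SD, n = 3 each). Ift80 (Gene ID 101823433) measured 33.3, 30.0 and 32.4 FPKM in the STYK1 libraries, against 20.6, 28.9 and 28.9 FPKM in the vector libraries. It was separate, with vector 1 far below the rest, and the log2 difference was 0.30 ± 0.14 (SE), or 0.14 without vector 1.

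Ift46 (Gene ID 101834446) was the 1 member with all STYK1 libraries below all vector libraries, at 54.1, 53.3 and 52.4 FPKM in STYK1 1, 2 and 3, against 67.9, 57.2 and 58.1 FPKM in vector 1, 2 and 3. Vector 1 was the highest, and the other vector libraries lay within 6 FPKM of the STYK1 values. Its log2 difference was -0.19 ± 0.09 (SE), and -0.11 without vector 1. Ift88 (Gene ID 101840557), a core IFT-B subunit without which cilia are not formed in the mouse, measured 3.08, 3.52 and 4.18 FPKM in the STYK1 libraries, against 3.04, 3.30 and 2.99 FPKM in the vector libraries. STYK1 1 lay within the vector range, and the log2 difference was 0.15 ± 0.14 (SE). Ift22, a small GTPase-like subunit, averaged 8.59 ± 0.241 FPKM in STYK1 and 9.83 ± 1.95 FPKM in vector libraries, with a log2 difference of -0.16 ± 0.14 (SE), and -0.29 without vector 1. Ift52, Ift20 and Ift172 had log2 differences between -0.04 and 0.05, and between -0.05 and 0.06 without vector 1. Of the IFT-A genes, Ift140 (Gene ID 101835019) measured 7.12, 7.03 and 6.45 FPKM in the STYK1 libraries, against 3.36, 6.34 and 6.96 FPKM in the vector libraries. Vector 3 lay within the STYK1 range and vector 1 far below it, with a log2 difference of 0.31 ± 0.22 (SE), or 0.04 without vector 1. Ift122 (Gene ID 101841683) measured 10.3, 12.6 and 13.4 FPKM in the STYK1 libraries, against 10.7, 10.4 and 11.9 FPKM in the vector libraries, with overlap and a log2 difference of 0.12 ± 0.13 (SE).

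BBSome genes had a median difference close to 0. Of 6 tested, 2 had a log2 fold change above 0, against 52.7% of all tested genes, and the median was -0.03 (0.01 without vector 1). Bbs7 (Gene ID 101842240) measured 36.1, 36.8 and 35.9 FPKM in the STYK1 libraries, against 31.1, 34.6 and 34.3 FPKM in the vector libraries, separate but with a log2 difference of 0.12 ± 0.08 (SE), or 0.07 without vector 1. Bbs4 (Gene ID 101823803) measured 7.95, 8.72 and 6.79 FPKM in the STYK1 libraries, against 8.65, 7.16 and 7.0 FPKM in the vector libraries, with the vector values inside the STYK1 range. Its log2 difference was 0.04 ± 0.14 (SE), a value that was 0.12 without vector 1 and turned to -0.02 after quantile normalization. Bbs9 (Gene ID 101839139) measured 4.63, 4.80 and 4.89 FPKM in the STYK1 libraries, against 6.80, 5.24 and 4.26 FPKM in the vector libraries, the STYK1 values lying inside the vector range. Its log2 difference was -0.14 ± 0.16 (SE), and 0.01 without vector 1. Bbs5 (Gene ID 101844072) measured 8.86, 7.44 and 8.70 FPKM in the STYK1 libraries, against 8.84, 8.25 and 9.09 FPKM in the vector libraries, with overlap and a log2 difference of -0.06 ± 0.12 (SE). The chaperonin-like genes Bbs12 (Gene ID 101834887) and Bbs10 (Gene ID 101841696), which help assemble the BBSome, overlapped as well. Bbs12 measured 9.07, 9.73 and 11.1 FPKM in the STYK1 libraries, against 8.85, 8.65 and 10.2 FPKM in the vector libraries, and Bbs10 measured 2.5, 4.71 and 2.55 FPKM in the STYK1 libraries, against 4.16, 2.64 and 3.28 FPKM in the vector libraries. Their log2 differences were 0.10 ± 0.12 and -0.06 ± 0.23 (SE), and both were 0.07 without vector 1.

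Other genes of these structures were taken from lists not built from the Cep, Ift and Bbs names. Of 39 tested genes of centrioles and centrosomes, 30 had a log2 fold change above 0, against 52.7% of all tested genes. Of the 39, 6 were higher and 0 lower at an unadjusted p under 0.05 (4.99% and 4.93% of all tested genes), and 0 passed (limma-trend). Their median was 0.16, and 0.05 without vector 1, when 0 were higher and 0 lower at that level (4.9% and 4.55% of all tested genes). They include the ring subunit Tubgcp6, at 6.08, 5.68 and 5.98 FPKM in the STYK1 libraries, against 3.67, 4.98 and 4.66 FPKM in the vector libraries. The augmin subunit Haus2 measured 23.5, 27.3 and 22.0 FPKM in the STYK1 libraries, against 13.9, 18.3 and 22.1 FPKM in the vector libraries. The kinase Ttbk2, which starts ciliogenesis, measured 2.15, 2.40 and 1.98 FPKM in the STYK1 libraries, against 0.56, 1.62 and 1.59 FPKM in the vector libraries. In all of these vector 1 was the lowest library. Ccp110, the partner of Cep97, measured 6.66, 7.30 and 6.5 FPKM in the STYK1 libraries, against 3.86, 5.68 and 5.75 FPKM in the vector libraries, a log2 difference of 0.37 ± 0.16 (SE), or 0.22 without vector 1. Stil and Cenpj, which act with Plk4 and Sass6 in building the centriole, had log2 differences of 0.43 ± 0.26 and 0.26 ± 0.18 (SE), and of 0.11 and 0.16 without vector 1.

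Of 21 tested further genes of intraflagellar transport and the BBSome, 10 were above 0, against 52.7% of all tested genes. Of the 21, 0 were higher and 0 lower at an unadjusted p under 0.05 (4.99% and 4.93% of all tested genes). Their median was -0.0045 (0.03 without vector 1). The smallest p belonged to the IFT-A genes Wdr35, with a log2 difference of 0.23 ± 0.12 (SE), and Ttc21b, with 0.22 ± 0.11 (SE); without vector 1 they were at 0.12 and 0.13. These were followed by the BBSome gene Ttc8, with 0.18 ± 0.10 (SE), and the IFT-B gene Traf3ip1, with 0.15 ± 0.09 (SE). The kinesin subunit Kif3a, a motor of outward transport, measured 12.7, 10.8 and 11.1 FPKM in the STYK1 libraries, against 12.3, 10.7 and 9.98 FPKM in the vector libraries. Of 22 tested genes of the transition zone and ciliary membrane, 11 were above 0, and the median was 0.0001 (0.01 without vector 1). Of the 22, 0 were higher and 2 lower at an unadjusted p under 0.05 (4.99% and 4.93% of all tested genes). The lower ones were Tmem231, at 41.0, 41.9 and 38.0 FPKM in the STYK1 libraries, against 48.3, 47.6 and 46.6 FPKM in the vector libraries, and B9d2, at 21.3, 19.4 and 23.9 FPKM in the STYK1 libraries, against 31.8, 23.5 and 25.9 FPKM in the vector libraries. Tmem231 was separate between the groups and B9d2 was not. Without vector 1 only Tmem231 was lower at that level (0 higher, 1 lower), and the log2 difference of B9d2 was -0.19 (unadjusted p = 0.0848, limma-trend) in place of -0.31. Arl13b and Cc2d2a, also of this list, had log2 differences of 0.27 ± 0.12 and 0.31 ± 0.14 (SE), and of 0.18 and 0.20 without vector 1.

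Hedgehog genes, whose signal runs through the primary cilium, had a median log2 fold change of 0.11 (0.08 without vector 1) over 7 tested genes. Of the 7, 0 were higher and 0 lower at an unadjusted p under 0.05 (4.99% and 4.93% of all tested genes). The target gene Gli1 measured 1.45, 3.39 and 1.47 FPKM in the STYK1 libraries, against 5.17, 1.58 and 1.18 FPKM in the vector libraries, so that STYK1 2 and vector 1 stood above the other libraries of their groups. The log2 difference of Gli1 was -0.13 ± 0.40 (SE), and 0.33 without vector 1. The receptor gene Ptch1, also a target, measured 3.06, 3.75 and 2.88 FPKM in the STYK1 libraries, against 2.56, 2.94 and 2.54 FPKM in the vector libraries, a log2 difference of 0.20 ± 0.14 (SE). Gpr161, Gli3 and Smo had log2 differences of 0.35 ± 0.17, 0.25 ± 0.17 and 0.11 ± 0.18 (SE), and of 0.25, 0.04 and -0.03 without vector 1. Markers of cells with motile cilia were in part near 0 and in part detected. Foxj1, the master regulator, was at or below 0.13 FPKM in STYK1 and 0.21 FPKM in vector libraries, Rsph1 was at or below 0.46 FPKM in STYK1 and 0.15 FPKM in vector libraries, and the dynein genes Dnah5 and Dnah9 were at or below 0.09 FPKM in every library. Ccdc39 measured 7.11 to 8.2 FPKM in STYK1 and 6.09 to 7.77 FPKM in vector libraries, and Ccdc40 measured 3.21 to 4.74 FPKM in STYK1 and 3.71 to 5.84 FPKM in vector libraries. Dnai1 measured 1.35 to 2.8 FPKM in STYK1 and 1.92 to 2.67 FPKM in vector libraries, and Ccno measured 1.69 to 2.08 FPKM in STYK1 and 1.66 to 2.58 FPKM in vector libraries. All of these overlapped between the groups. Of that list 9 of 12 genes had an ID and 5 were tested, with 1 above 0, against 52.7% of all tested genes. Of these 5, 0 were higher and 0 lower at an unadjusted p under 0.05 (4.99% and 4.93% of all tested genes). The list had a median of -0.10 (0.02 without vector 1). Its summed level of 199 to 227 FPKM in STYK1 and 228 to 304 FPKM in vector libraries came mostly from Tppp3, at 183 to 212 FPKM in STYK1 and 213 to 287 FPKM in vector libraries. Tppp3 did not overlap between the groups, with STYK1 1 (212.48 FPKM) just below vector 3 (212.8 FPKM). Its log2 difference was -0.26 ± 0.12 (SE), and -0.12 without vector 1.

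Genes of low level were frequent among the members and had higher log2 fold changes over all tested genes as well. Over all tested genes with a mean under 10 FPKM (4025 genes) the median log2 fold change was 0.06, and over those of 10 FPKM or more (7317 genes) it was -0.0098. Among the members it was 0.16 for the 34 under 10 FPKM and 0.06 for the 33 of 10 FPKM or more. Without vector 1 the members stood at 0.10 and 0.05, and all tested genes at 0.05 and 0.0039, in the same order of levels. The members lay above all genes in both ranges, and no test of that gap was made. The median SD of log2(FPKM + 1) between STYK1 libraries was 0.11 for members and 0.10 for all tested genes. Between vector libraries it was smaller for members, at 0.13, than for all tested genes, at 0.17. Without vector 1 it was 0.07 and 0.06 in the vector group.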

How the data were processed

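The authors deposited 1 file of FPKM values per library, with 2 decimals, per the file headers; the submitters' processing notes list Bowtie 0.12.2 and, as builds, mouse mm8 and mm9, without saying what each was used for. How FPKM were computed, on which annotation and whether by strand, is not stated in the material used, so values of overlapping genes and close paralogs are uncertain. Of 16078 IDs, 15049 matched a symbol in the RefSeq table of hamster assembly BCM_Maur_2.0, used for names only. Libraries were grouped by their treatment label. Genes with a mean over all 6 libraries of at least 1 FPKM (11342) were tested with limma-trend (limma 3.58.1, R 4.3.3, robust) on log2(FPKM + 1), with Benjamini-Hochberg adjustment over all tested genes, which was tested on simulated data. Members, roles and lists come from general knowledge and were chosen with earlier results of these data known; the roles of Cep55, Cep68, Cep70, Cep85l, Cep95, Cep112 and Cep295nl were set after their values were seen. Members given in full are the 3 with the smallest p per role, those separate between groups with an unadjusted p under 0.05, and a fixed core. Alternatives changed pseudocount, filter, scaling, library weights, replicate block and left out each library.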

Additional observations from a re-analysis of the deposited data

How the results depend on the processing

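No member passed an adjusted p of 0.05 in any of the 16 alternatives (limma-trend); the count over all genes was 21 with quality weights, 2 without STYK1 1, STYK1 3 or vector 3, and 0 in the others. The count of members higher at an unadjusted p under 0.05, 6 as reported, was 14 with equal FPKM sums, 15 with quality weights and between 1 and 8 with 1 library left out, the 8 being without vector 3, where 7.89% of all genes were higher; the count of lower members, 0 as reported, was 1 after median centring, 1 with quality weights and between 0 and 1 with 1 library left out. The median log2 fold change, 0.11, was 0.21 with equal sums; its other alternatives moved it by less than 1 SD of the members' mean level between libraries (0.0514). Libraries share replicate numbers, and same-numbered pairs correlated at -0.275, -0.158 and 0.117 in their deviations from the group means. Pairs with different numbers ran from -0.288 to 0.283. The deviations within a group of 3 libraries are tied to each other, so these values cannot show whether the numbers pair the libraries. With the replicate block the count of higher members was 3 (Cep170, Cep85l and Cep97), with 3.91% of all genes higher. For the 31 members given with full statistics, 481 of 494 values kept their direction and stayed short of the threshold, and 13, in 5 genes, changed sign. The filters and the replicate block cannot change the direction of a gene, because its log2 fold change is the same under them. The single values of the other members were compared only with and without vector 1; over all 67, 12 had the other sign without it, Cep95, Cep128 and Cep131 among them. Bbs10 (-0.06) was at 0.0271 with equal sums and between -0.2921 and 0.0688 with 1 library left out. Bbs5 (-0.06) was at 0.038 with equal sums, 0.0144 with quality weights and between -0.1034 and 0.0088 with 1 left out. Bbs4 (0.04) was at -0.0242 after quantile normalization and between -0.0379 and 0.1217 with 1 left out. Bbs9 (-0.14) lay between -0.2734 and 0.0108 and Cep68 (0.11) between -0.0006 and 0.2052 with 1 left out. The cause of these shifts was not tested. Depth is unknown, so no counting error can be given for genes near 1 FPKM such as Cep85l and Cep97.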
